A study of Mus musculus with 12 samples.

Results

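A set of 10 genes that encode cytokines, regulators and surface proteins induced through NF-kB was described across 4 genotypes of mouse B220+ splenocytes: Lta, Ltb, Tnf, Ebi3, Ccl22, Traf1, Tnfaip3, Birc3, Cd83 and Icam1. They were chosen by symbol, as genes known to be induced by this pathway, but with earlier results of these data known. All 10 were found among the 24421 genes counted. All 10 passed the filter on low counts that kept 12878 genes for testing. RNA was sequenced from B220+ cells of the spleen of 12 mice aged 4 to 5 weeks, with 3 individual mice in each of 4 groups. B220, a CD45 isoform, marks B cells from early stages on and is shared by plasmacytoid dendritic cells. The WT group had intact Max and no transgene. The Max KO group carried a conditional knockout of Max and no transgene. The EuMyc group had intact Max and the EuMyc transgene, whose heavy chain (IgH) enhancer switches on Myc in cells of the B lineage. The EuMyc Max KO group carried the transgene together with the conditional Max knockout. The Cre that deletes Max is not given in the sources used here, and the series title calls the transgenic cells premalignant.

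NF-kB is a family of dimeric transcription factors (RELA, RELB, REL and the processed products of NFKB1 and NFKB2) that IkB proteins hold inactive in the cytoplasm. In B cells the antigen receptor, CD40, the BAFF receptor and Toll-like receptors release the dimers by way of the IKK and NIK kinases. The induced genes include cytokines, chemokines, adhesion and co-stimulatory proteins, survival factors, and brakes such as A20 that switch the pathway off again. MYC binds DNA as a dimer with MAX, mostly at E-box sequences. The comparisons address the effect of the Max knockout on B cells with a Myc transgene and on B cells that lack it.

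The promoters of Ebi3, Ltb and Tnfaip3 are shown because they were the only member promoters in which a match to the kappaB consensus was found. RefSeq promoter windows of 300 bases (build GRCm38.p6) were found for 9 of the 10 genes, Cd83 being the exception. They were searched on both strands for matches to the kappaB consensus GGGRNWYYCC, a letter pattern of NF-kB binding sites, and to the E-box CACGTG. In the kappaB pattern R is A or G, N is any base, W is A or T and Y is C or T. Only exact matches were counted, so a window without a match may still hold a kappaB site that deviates from the pattern. The kappaB consensus was present in 3 of these 9 genes and the E-box in 1, against 5.14% and 8.09% of the 27025 genes with a promoter window and 4.51% and 7.15% of all 32851 promoters of the same length. The stretches below lie upstream of the start site, outside annotated exons, and are written 5′ to 3′ on the strand of the gene with matches in capitals.
Ebi3, chr17:55952373-55952622, plus strand: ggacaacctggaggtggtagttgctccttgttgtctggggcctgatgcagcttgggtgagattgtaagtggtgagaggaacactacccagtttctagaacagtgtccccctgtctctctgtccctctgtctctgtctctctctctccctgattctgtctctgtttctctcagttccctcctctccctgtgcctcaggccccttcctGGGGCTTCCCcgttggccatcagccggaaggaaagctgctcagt
Ltb, chr17:35194257-35194438, plus strand: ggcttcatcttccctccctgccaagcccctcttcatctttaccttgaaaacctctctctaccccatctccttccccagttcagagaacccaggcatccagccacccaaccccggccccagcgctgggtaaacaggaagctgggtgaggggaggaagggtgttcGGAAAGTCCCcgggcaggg
Tnfaip3, chr10:19015411-19015547, minus strand: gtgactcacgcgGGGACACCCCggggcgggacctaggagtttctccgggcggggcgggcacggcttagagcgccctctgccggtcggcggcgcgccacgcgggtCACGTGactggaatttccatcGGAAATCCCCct
The kappaB match of Ebi3 began at -44 from the start site and that of Ltb at -87. Tnfaip3 held a pair of kappaB matches, at -125 and -12, and the E-box between them at -33. The match of Ltb and the downstream one of Tnfaip3 read on the opposite strand, and no matches overlapped. A match describes the letters of the window, and no binding was measured here.

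Each library held 14973332 to 21671601 reads assigned to genes, the EuMyc libraries being the deepest at 20221681 to 21671601. Levels are given as TMM-scaled counts per 1000000 reads assigned to genes (CPM), so they are shares of the RNA sequenced and hold no information on RNA per cell. Max stood at 108 to 139 CPM in WT against 99.8 to 102 in Max KO (log2 fold change -0.23, SE 0.0784, edgeR adjusted p = 0.0623). It stood at 126 to 130 CPM in EuMyc against 102 to 108 in EuMyc Max KO (-0.29, edgeR adjusted p = 0.00462). The count of the whole gene does not show how much of it lies in the deleted part. Myc ranged over 96.0 to 115 CPM in WT libraries, 975 to 1049 in those of EuMyc and 487 to 565 in those of EuMyc Max KO. The 9 B lineage genes described here were counted in each group. Of these Cd79a, which encodes a signalling chain of the B cell receptor, held 1691 to 2122 CPM in the WT libraries, 779 to 862 in those of Max KO, 864 to 964 in those of EuMyc and 615 to 758 in those of EuMyc Max KO. EuMyc Max KO replicate 3 stood apart from the other libraries of its group. The chi-square of its counts against theirs, divided by the degrees of freedom, was 65.6 and 30.5, where other pairs of replicates reached at most 15.0. It held 1259 CPM of erythroid markers against 4435 and 6570, and 33.5 CPM of neutrophil markers against 254 and 277. Without it all 10 members kept their calls in EuMyc Max KO against EuMyc, with log2 fold changes of 1.16 to 5.50, and in the interaction.

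All 10 genes fell in EuMyc against WT, where 34.9% of all tested genes were called lower and 36.7% higher, and all 10 rose again in EuMyc Max KO against EuMyc, where 37.6% were called higher and 36.1% lower. The threshold was a Benjamini-Hochberg adjusted p under 0.05 over all 12878 genes, from the quasi-likelihood test of edgeR. The 3 libraries of EuMyc lay below the 3 of WT for each of the 10 genes, as they did for 37.6% of all genes. The 3 of EuMyc Max KO lay above the 3 of EuMyc for each of them, as did those of 38.0% of all genes. Lower in the first comparison and higher in the second described 29.6% of all genes. The members were chosen with earlier results of these data known, so their counts beside these shares are a description. The members' median log2 fold change was -3.01 in EuMyc against WT and 3.01 in EuMyc Max KO against EuMyc, beside medians of 0.01 and 0.03 over all genes. These comparisons share the EuMyc libraries, so a library that stands low in one raises the other. In bulk samples, fewer cells that express a gene and less RNA of it per cell cannot be told apart.

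**Figure D1:**
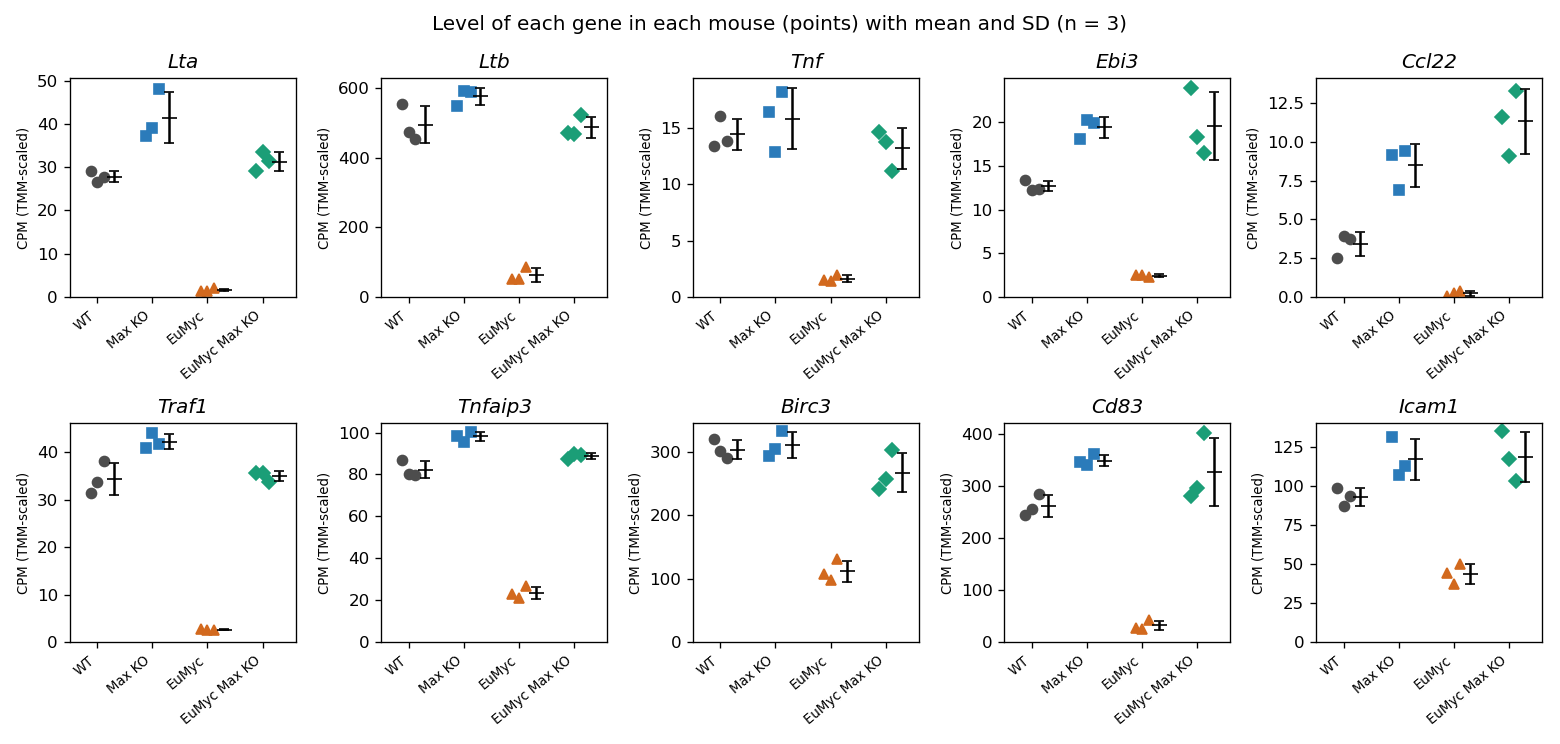
Level of each gene, in TMM-scaled CPM, in each mouse (points) with the mean and SD (n = 3) beside them, by genotype. EuMyc points sit below those of every other group in all 10 panels, from Ccl22 (0.0484 to 0.366 CPM) to Birc3 (97.9 to 130.2 CPM).

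Lta, Ltb and Tnf, the lymphotoxin and tumour necrosis factor genes, form a cluster on chromosome 17 (GRCm38): Ltb lies at 35194439 to 35196320 on the plus strand, Tnf at 35199381 to 35202007 and Lta at 35203165 to 35205351 on the minus strand. The gap between Ltb and Tnf is 3060 bp and that between Tnf and Lta is 1157 bp. LTα and LTβ form a membrane heterotrimer that binds the LTβ receptor and keeps the follicle structure of the spleen, while soluble LTα and TNF bind the TNF receptors. Lta held 29.2, 26.7 and 27.7 CPM in the WT libraries, 37.2, 39.1 and 48.2 in those of Max KO, 1.45, 1.49 and 1.99 in those of EuMyc, and 29.1, 33.4 and 31.3 in those of EuMyc Max KO. Its EuMyc libraries were lower than every other library, and its WT and Max KO values did not overlap. Lta was 16.9-fold lower in EuMyc than in WT (log2 fold change -4.08, SE 0.144, edgeR adjusted p = 2.86e-10) and 19.0-fold higher in EuMyc Max KO than in EuMyc (4.25, SE 0.144, edgeR adjusted p = 2.91e-10).

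Ltb held 554, 474 and 454 CPM in the WT libraries, 549, 591 and 588 in those of Max KO, 51.5, 51.3 and 86.4 in those of EuMyc, and 472, 468 and 521 in those of EuMyc Max KO. The highest EuMyc library, replicate 3, was still well below the lowest library of any other group. Ltb fell by 2.97 on the log2 scale in EuMyc (SE 0.183, edgeR adjusted p = 6.3e-08), a 7.84-fold decrease, and rose by 2.95 in EuMyc Max KO against EuMyc. Tnf held 13.4, 16.0 and 13.9 CPM in the WT libraries, 16.4, 12.8 and 18.2 in those of Max KO, 1.499, 1.38 and 1.99 in those of EuMyc, and 14.7, 13.8 and 11.2 in those of EuMyc Max KO. Its WT, Max KO and EuMyc Max KO values overlapped one another, and EuMyc stood apart below them. The decrease of Tnf in EuMyc was 8.87-fold (log2 fold change -3.15, SE 0.192, edgeR adjusted p = 1.21e-08), and Tnf rose by 3.02 (SE 0.192) in EuMyc Max KO against EuMyc.

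Ebi3 encodes a subunit that pairs with IL-27 p28 or IL-12 p35 to form cytokines, and Ccl22 encodes a chemokine that draws CCR4-bearing T cells. Ebi3 (chromosome 17, 55952640 to 55957022, plus strand) held 13.4, 12.3 and 12.4 CPM in the WT libraries, 18.1, 20.2 and 19.9 in those of Max KO, 2.51, 2.55 and 2.25 in those of EuMyc, and 23.9, 18.3 and 16.5 in those of EuMyc Max KO. Its levels in WT, below those in Max KO, were far above those in EuMyc. Ebi3 was 5.19-fold lower in EuMyc than in WT (log2 fold change -2.38, SE 0.153, edgeR adjusted p = 1.94e-08) and rose by 3.00 (SE 0.153) in EuMyc Max KO against EuMyc. Exons of Ebi3 overlap the antisense gene Gm16712 over 270 bp, which is 23.4% of their length. The strand setting of the counting is not given in the sources used here, so how reads in these 270 bp were counted is not known. Gm16712 was counted as a gene of its own, with 46 to 69 reads in WT and 20 to 31 in EuMyc.

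Ccl22 (chromosome 8, 94745590 to 94751699, plus strand) held 2.52, 3.92 and 3.75 CPM in the WT libraries, 9.15, 6.90 and 9.43 in those of Max KO, 0.0484, 0.266 and 0.366 in those of EuMyc, and 11.6, 9.10 and 13.3 in those of EuMyc Max KO. It is the lowest of the 10 in EuMyc, with 1, 5 and 7 reads in the 3 libraries, 13 in all. Ccl22 was 14.8-fold lower in EuMyc than in WT (log2 fold change -3.89, SE 0.402, edgeR adjusted p = 1.58e-06). It was 49.4-fold higher in EuMyc Max KO than in EuMyc (5.63, SE 0.383, edgeR adjusted p = 3.62e-08), a ratio whose size rests on those few reads. Its WT and Max KO libraries did not overlap either. The receptor gene of CCL22, Ccr4, was listed at no more than 0.676 CPM in any library and did not pass the filter.

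Among the intracellular regulators, Traf1 is an adaptor for TNF receptors, Tnfaip3 (A20) edits ubiquitin chains to shut NF-kB signalling down, and Birc3 (cIAP2) is a ubiquitin ligase of the TNF receptor complex. Traf1 (chromosome 2, 34941750 to 34961772, minus strand) held 31.5, 33.6 and 38.1 CPM in the WT libraries, 40.9, 44.0 and 41.7 in those of Max KO, 2.76, 2.45 and 2.56 in those of EuMyc, and 35.6, 35.7 and 33.8 in those of EuMyc Max KO. EuMyc values sat within a narrow band far below the others, and the Max KO values lay above all of WT. The decrease of Traf1 in EuMyc was 13.3-fold (log2 fold change -3.73, SE 0.0987, edgeR adjusted p = 7.52e-11) and its rise in EuMyc Max KO against EuMyc was 3.75 (SE 0.0986, edgeR adjusted p = 8e-11). Traf1 has the smallest spread of the 10 within the EuMyc group, with a coefficient of variation of 6.08%.

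Tnfaip3 (chromosome 10, 19000910 to 19015657, minus strand) held 86.8, 80.2 and 79.6 CPM in the WT libraries, 98.5, 95.7 and 100.1 in those of Max KO, 22.9, 20.8 and 26.6 in those of EuMyc, and 87.4, 89.7 and 89.3 in those of EuMyc Max KO. Each group kept apart from the others on this gene, in the order EuMyc, WT, EuMyc Max KO and Max KO. Tnfaip3 was 3.51-fold lower in EuMyc than in WT (log2 fold change -1.81, SE 0.0794, edgeR adjusted p = 1e-09) and rose by 1.92 (SE 0.0795) in EuMyc Max KO against EuMyc. Birc3 (chromosome 9, 7848699 to 7873186, minus strand) held 319, 301 and 289.8 CPM in the WT libraries, 294, 304 and 333 in those of Max KO, 106, 97.9 and 130.2 in those of EuMyc, and 242, 258 and 302 in those of EuMyc Max KO. WT and Max KO overlapped on Birc3, and EuMyc lay below both. Birc3 was 2.72-fold lower in EuMyc than in WT (log2 fold change -1.44, SE 0.107, edgeR adjusted p = 8.36e-08) and rose by 1.26 (SE 0.107) in EuMyc Max KO against EuMyc.

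Cd83 and Icam1 encode surface proteins of activated B cells and dendritic cells. CD83 keeps MHC class II and CD86 at the surface, and ICAM-1 binds the integrin LFA-1. Cd83 (chromosome 13, 43784775 to 43803132, plus strand) held 244, 257 and 285 CPM in the WT libraries, 346, 339.9 and 362 in those of Max KO, 27.5, 25.6 and 42.3 in those of EuMyc, and 280.9, 297 and 402 in those of EuMyc Max KO. Its WT and Max KO libraries did not overlap, while EuMyc Max KO spanned from within the WT range to above the Max KO range. Cd83 was 8.24-fold lower in EuMyc than in WT (log2 fold change -3.04, SE 0.195, edgeR adjusted p = 1.4e-07) and rose by 3.36 (SE 0.197) in EuMyc Max KO against EuMyc.

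Icam1 (chromosome 9, 21015985 to 21028817, plus strand) held 98.3, 86.9 and 93.5 CPM in the WT libraries, 131, 107 and 113 in those of Max KO, 44.3, 36.9 and 49.8 in those of EuMyc, and 135, 117 and 103 in those of EuMyc Max KO. The EuMyc libraries lay below all the others, and WT and Max KO did not overlap. Icam1 had the smallest decrease of the 10 in EuMyc, 2.13-fold (log2 fold change -1.09, SE 0.124, edgeR adjusted p = 6.31e-06), and rose by 1.44 (SE 0.124) in EuMyc Max KO against EuMyc. Exons of Icam1 overlap the antisense gene Gm47079 over 511 bp, or 11.7% of their length, and that gene was not counted separately.

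**Figure D2:**
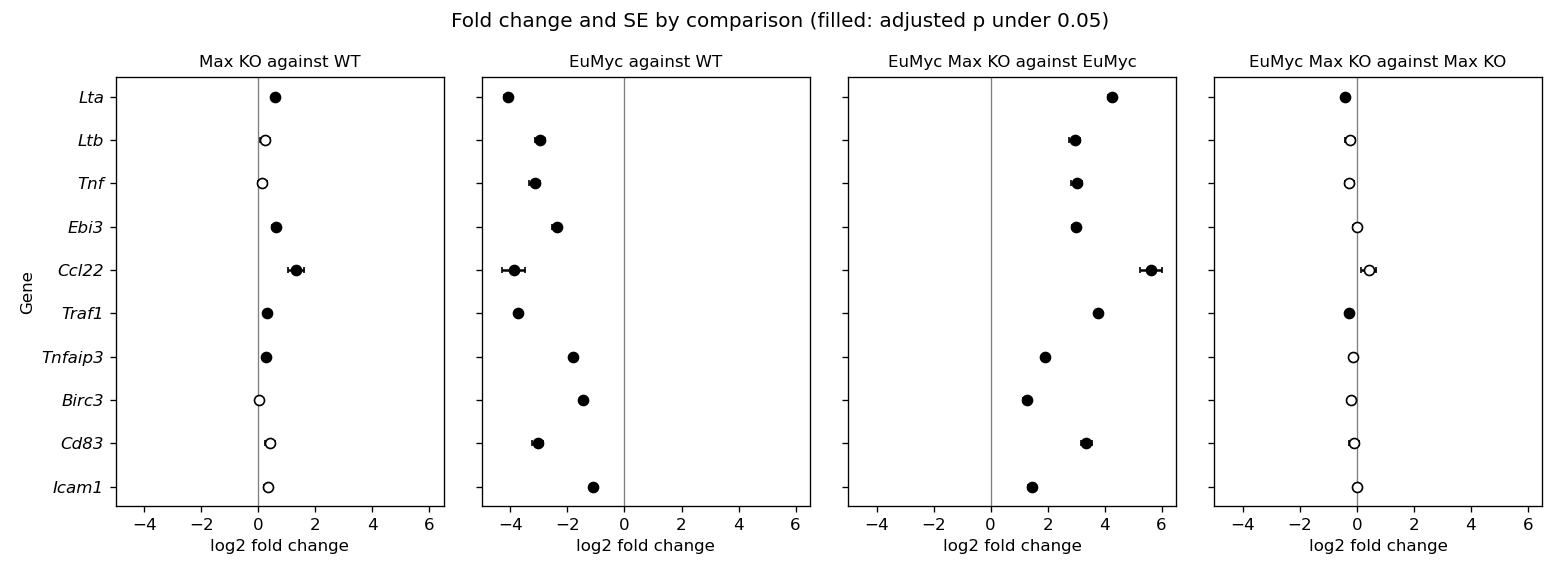
Log2 fold change (x axis) of each gene with its standard error in 4 comparisons, filled where the edgeR adjusted p is under 0.05. The 10 genes lie from -4.08 to -1.09 in EuMyc against WT and from 1.26 to 5.63 in EuMyc Max KO against EuMyc. They lie from 0.03 to 1.32 in Max KO against WT and from -0.41 to 0.41 in EuMyc Max KO against Max KO.

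Levels of different genes were set side by side as RPKM, that is CPM per kilobase of exon, using the merged exon length in the mm10 annotation GENCODE vM21. In WT the order of mean level was Ltb (326 RPKM), Cd83 (102), Birc3 (60.6), Icam1 (21.3), Lta (20.1), Tnfaip3 (11.4), Ebi3 (11.0), Tnf (8.81), Traf1 (3.90) and Ccl22 (1.46). Icam1 and Lta overlapped in WT, as did Tnfaip3 and Ebi3, so those neighbours in the order did not separate. Ltb was the highest of the 10 in each group, at 41.6 RPKM in EuMyc and 321 in EuMyc Max KO. In EuMyc Birc3 (22.3 RPKM) came before Cd83 (12.4), the reverse of the other groups, Cd83 overlapped with Icam1 (10.02), and Lta (1.19) overlapped with Tnf (0.990). In EuMyc Max KO Ccl22 (4.87 RPKM) stood above Traf1 (3.97) on the mean, with overlapping libraries. The annotation used by the authors is not given in the sources used here, so the lengths behind these values may differ from theirs.

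**Figure D3:**
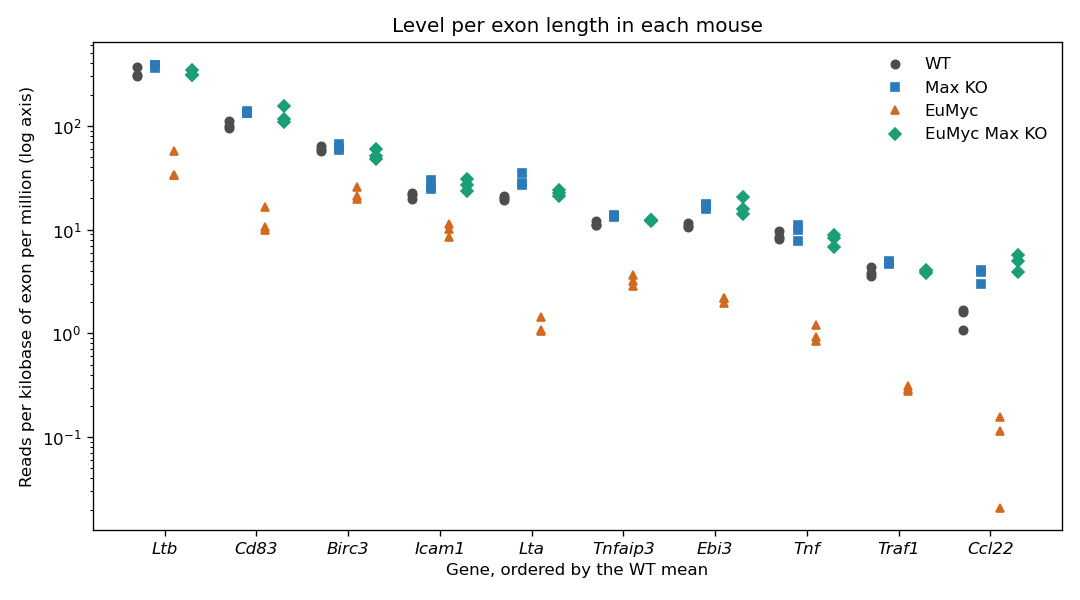
Level of each gene per exon length (RPKM, log axis) in each mouse, genes ordered by their WT mean. Ltb is highest in each group (41.6 RPKM in EuMyc against 326 in WT), and the EuMyc points lie lowest for every gene.

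Without the transgene, 5 of the 10 genes rose with the Max knockout and none fell, while 7.27% of all genes were called higher in Max KO against WT and 7.74% lower (936 and 997 genes, or 1130 and 719 with library totals in place of TMM). The 3 Max KO libraries lay above the 3 WT libraries for 7 of the 10, as they did for 18.0% of all genes. Ccl22 rose most, 2.50-fold (log2 fold change 1.32, SE 0.277, edgeR adjusted p = 0.00883), followed by Ebi3 (0.61, SE 0.135, edgeR adjusted p = 0.011) and Lta (0.57, SE 0.111, edgeR adjusted p = 0.00587). These 3 calls held under all 20 alternative settings tried. Traf1 (0.29, SE 0.0801, edgeR adjusted p = 0.0292) and Tnfaip3 (0.26, SE 0.0753, edgeR adjusted p = 0.0399) passed the threshold in the full data set. Traf1 lost its call without WT replicate 1 or 2 or any Max KO replicate (edgeR adjusted p up to 0.120). Tnfaip3 lost it without any WT or Max KO replicate, EuMyc replicate 1 or EuMyc Max KO replicate 2 (up to 0.132), and also with RLE size factors (0.0510) or no filter on low counts (0.0503).

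The other members gave no call in Max KO against WT. Cd83 had a log2 fold change of 0.41 (95% interval 0.01 to 0.82, edgeR adjusted p = 0.143) and Icam1 one of 0.33 (0.05 to 0.61, edgeR adjusted p = 0.0865), with libraries that did not overlap. Cd83 passed without EuMyc replicate 3 (edgeR adjusted p = 0.0401) and Icam1 without EuMyc Max KO replicate 3 (0.0479). With the spread estimated from the WT and Max KO libraries alone, the adjusted p was 0.000857 for Cd83 and 0.00953 for Icam1. Ltb (0.22, interval -0.17 to 0.61), Tnf (0.13, -0.24 to 0.51) and Birc3 (0.03, -0.21 to 0.27) overlapped between the groups. The members' median was 0.31 against 0.00 over all genes.

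Markers of other cell types moved with the same comparison. Monocyte and macrophage genes summed to 1921 to 2408 CPM in WT and 3145 to 4411 in Max KO. Of these 12 genes 11 had non-overlapping groups and 3 were called (1 to 10 over the 20 alternatives), and none of them was at 0. Conventional dendritic cell genes summed to 36.5 to 56.1 CPM in WT and 66.7 to 95.0 in Max KO, with 2 of 9 tested genes called. Plasmacytoid dendritic cell genes summed to 885 to 945 CPM in WT and 1010 to 1315 in Max KO, with 0 of 10 called. NK cell genes summed to 21.6 to 36.3 and 40.9 to 58.9 CPM (0 of 8 called), and neutrophil genes to 11.1 to 20.6 and 24.6 to 163 (1 of 7). The sums of T cell, erythroid, and pro-B and pre-B genes overlapped between the groups. Mature B cell genes summed to 10153 to 10507 CPM in WT and 10306 to 11838 in Max KO. Of these 9 genes Cr2 (0.56, edgeR adjusted p = 0.0450) and Bcl2 (0.40, 0.0139) were called higher (0 to 4 calls over the 20 alternatives). Of the 9 B lineage genes Cd79a (-1.22, edgeR adjusted p = 1.63e-05) and Cd79b (-0.36, 0.0362) were called lower. Of the 9, 1 was called with library totals and without any WT replicate, Max KO replicate 1 or 2, EuMyc replicate 1 or EuMyc Max KO replicate 2. The part of these markers in the rise of Ccl22, Ebi3 and Lta was not tested.

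The transgene was next compared among libraries with the Max knockout. In EuMyc Max KO against Max KO, 2 of the 10 genes were called lower, where 3.69% of all genes were, and none higher, where 10.7% were. Lta was lower at log2 fold change -0.41 (SE 0.111, edgeR adjusted p = 0.0279) and Traf1 at -0.27 (SE 0.0799, edgeR adjusted p = 0.0416). The 3 libraries lay below all 3 of Max KO for Lta, Traf1, Ltb and Tnfaip3, which 15.1% of all genes did. Lta lost its call without Max KO replicate 3 (edgeR adjusted p = 0.108) or EuMyc Max KO replicate 1 (0.105) or 2 (0.0513). Traf1 lost it without any 1 of 10 of the 12 libraries, the exceptions being WT replicates 1 and 3 (adjusted p up to 0.115), and also with no filter on low counts (0.0595) or with the replicate number as a block (0.0608). Fitted on the libraries of these 2 groups alone, neither was called (0.0759 for Lta and 0.0607 for Traf1). Without EuMyc Max KO replicate 3, Birc3 passed (-0.31, edgeR adjusted p = 0.0401), against -0.22 (interval -0.46 to 0.03) in the full data set. The intervals of the other members reached from -0.63 to 0.15 for Ltb, -0.64 to 0.11 for Tnf, -0.32 to 0.03 for Tnfaip3, -0.50 to 0.31 for Cd83, -0.26 to 0.30 for Icam1, -0.29 to 0.32 for Ebi3 and -0.19 to 1.02 for Ccl22.

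The effect of the transgene differed with and without the Max knockout for all 10 genes (interaction called, with 27.8% of all genes called in the same direction and 27.9% in the other). The difference between the transgene's log2 effects, that in the Max knockout minus that with intact Max, was largest for Ccl22 (4.31), Lta (3.67) and Traf1 (3.46) and smallest for Birc3 (1.23) and Icam1 (1.11). The remaining values were 2.95 for Cd83, 2.89 for Tnf, 2.73 for Ltb, 2.39 for Ebi3 and 1.67 for Tnfaip3. The interaction's median over the members was 2.81, against 0.02 over all genes. These 10 calls held in every alternative tried, as did those of EuMyc against WT and of EuMyc Max KO against EuMyc. Myc itself rose 9.58-fold in EuMyc against WT and 4.13-fold in EuMyc Max KO against Max KO (interaction -1.21, edgeR adjusted p = 2.33e-06). The transgene effects were thus not compared at the same level of Myc RNA, and the part of this in the members' interaction was not tested.

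Within groups the members did not all rank the libraries in the same order. EuMyc replicate 3 was the highest of its group for 8 of the 10 genes, all but Ebi3 and Traf1, and also had the highest summed mature B cell markers of that group (2290 CPM against 1644 and 1892). EuMyc Max KO replicate 3 was the highest of its group for Cd83, Birc3, Ltb and Ccl22, while replicate 1 was the highest for Ebi3, Icam1 and Tnf. After subtraction of the group means, correlations between pairs of members over the 12 libraries ran from -0.68 (Ebi3 and Cd83) to 0.89 (Ltb and Tnfaip3), with a median of 0.25 over 45 pairs. Members counted in the same library share its depth and scaling, so these are a description.

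Beside the fall of the members in EuMyc, markers of several cell types were lower in the same libraries. Erythroid genes went the other way, with 7 of 9 called higher (2 to 7 calls over the 20 alternatives). Of 7 tested neutrophil genes 1 was called lower (1 to 4 calls), at sums of 11.1 to 20.6 CPM in WT and 12.4 to 17.3 in EuMyc. Mature B cell genes such as Cr2, the complement receptor of follicular and marginal zone cells, were called lower in 9 of 9, with summed levels of 10153 to 10507 CPM in WT, 1644 to 2290 in the EuMyc libraries and 7604 to 9554 in those of EuMyc Max KO. The 9 B lineage genes, of which Cd22 and Ms4a1 are also in the mature B cell list, were called lower in 9 of 9, at 10149 to 11035 CPM in WT, 3994 to 4753 in the EuMyc libraries and 6883 to 8460 in those of EuMyc Max KO. Among them Ptprc, the gene of CD45 and so of the sorted B220, changed by -1.85 in EuMyc and 1.61 in EuMyc Max KO against EuMyc. Of 10 tested pro-B and pre-B genes 8 were called higher and Kit was called lower (-1.21), while Dntt was not called. They summed to 69.4 to 82.1 CPM in WT, 952 to 1012 in the EuMyc libraries and 98.6 to 161 in those of EuMyc Max KO, with Vpreb2 at 0 in all WT libraries. Plasmacytoid dendritic cell genes such as Siglech were lower in 8 of 10 and higher in 1, at 885 to 945 CPM in WT and 275 to 360 in EuMyc. T cell genes were lower in 11 of 11 tested, at 54.4 to 79.6 CPM in WT and 11.1 to 16.8 in EuMyc. NK cell genes were lower in 6 of 8 tested, at 21.6 to 36.3 and 3.96 to 10.3 CPM. Conventional dendritic cell genes were lower in 8 of 9 tested (5 without EuMyc replicate 1), at 36.5 to 56.1 CPM in WT and 7.16 to 8.72 in EuMyc, and monocyte and macrophage genes in 10 of 12, at 1921 to 2408 and 1012 to 1226 CPM.

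Beside the rise of the members in EuMyc Max KO against EuMyc, markers of most of these cell types were higher as well. The counts called higher were 9 of 9 for mature B cell genes, 6 of 9 for B lineage genes with Cd79a lower (-0.43), 8 of 10 for plasmacytoid and 8 of 9 for conventional dendritic cell genes, 11 of 11 for T cell genes, 8 of 8 for NK cell genes, 12 of 12 for monocyte and macrophage genes and 8 of 9 for erythroid genes. Neutrophil genes were higher in 7 of 7 tested (2 with limma-voom, 4 without EuMyc replicate 2, 3 without EuMyc replicate 3 and 4 without EuMyc Max KO replicate 1). Of the pro-B and pre-B genes 5 of 10 were lower and 1 higher. In EuMyc Max KO the summed levels were 892 to 905 CPM for plasmacytoid and 41.8 to 60.9 for conventional dendritic cell genes, 84.3 to 102 for T cell genes, 43.5 to 62.8 for NK cell genes, 33.5 to 277 for neutrophil genes and 3373 to 6127 for monocyte and macrophage genes. The erythroid genes summed to 1259 to 6570 CPM there, against 748 to 892 in EuMyc and 162 to 423 in WT. Markers also differed in EuMyc Max KO against Max KO. Mature B cell sums were lower (7604 to 9554 against 10306 to 11838 CPM), with 1 of 9 genes called (0 to 6 over the 20 alternatives). B lineage sums were lower as well (6883 to 8460 against 8473 to 9385 CPM), with 1 of 9 called (0 to 5). In that comparison 8 of 9 erythroid genes were called higher (7 to 9 calls over the alternatives), and 6 of 10 pro-B and pre-B genes (2 to 9). Of the conventional dendritic cell genes 3 of 9 were called lower, and of the plasmacytoid ones 2 of 10. No monocyte and macrophage, neutrophil, T cell or NK cell gene was called there. The part of any of these in the members' values was not tested.

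**Figure D4:**
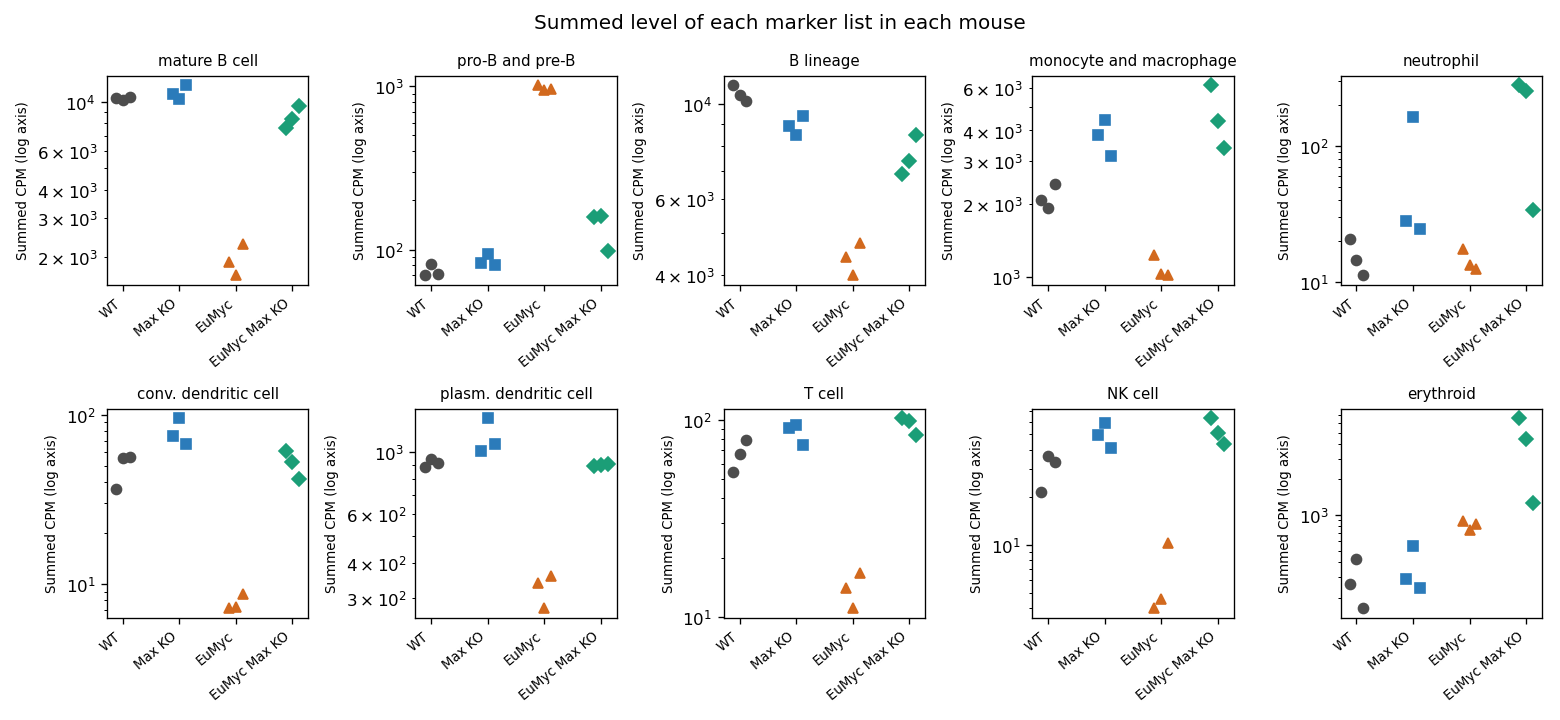
Summed CPM (log axis) of each marker list in each mouse, by genotype. Mature B cell genes drop from 10153 to 10507 in WT to 1644 to 2290 in EuMyc, while pro-B and pre-B genes stand at 952 to 1012 in EuMyc against 69.4 to 82.1 in WT.

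The genes of the NF-kB subunits and IkB proteins were low in the same group as the members. All 11 fell in EuMyc against WT (median log2 fold change -1.37), with Nfkbib (-0.23) losing its call without WT replicate 1 or 2 or EuMyc replicate 1 or 2 (edgeR adjusted p up to 0.117). In turn 10 of 11 rose in EuMyc Max KO against EuMyc (median 1.06), and Nfkbib (0.08) was the 1 not called. Nfkb2, the precursor of the p52 subunit, had 245 ± 20.1 CPM (SD, n = 3) in WT, dropped to 49.0 ± 4.39 with the transgene, and stood at 246 ± 10.5 with the transgene and the Max knockout. Bcl3, an IkB family member that partners p50 and p52 in the nucleus, changed by -2.64 (SE 0.120, edgeR adjusted p = 1.3e-09) in EuMyc and 2.75 in EuMyc Max KO against EuMyc. Nfkb1 fell by 1.20 and Nfkbie, the IkBε gene, by 1.66 in EuMyc. In Max KO against WT, Nfkbie (0.38, edgeR adjusted p = 0.0131), Nfkb2 (0.31, 0.0143) and Nfkbiz (0.55, 0.0152) were called, of which Nfkbie held under all 20 alternatives. Nfkb2 missed the threshold when WT library 2 or 3, or Max KO library 1 or 3, was left out (highest edgeR adjusted p 0.0619). Nfkbiz did so when WT library 2, or Max KO library 1 or 3, was left out (highest 0.0744). In EuMyc Max KO against Max KO, 2 of the 11 were called lower, where 3.69% of all genes were, and none higher. They were Nfkb2 (-0.31, edgeR adjusted p = 0.0134), which held under all 20 alternatives, and Nfkbie (-0.28, 0.0454), which lost its call in 10 of 20. The log2 fold changes of the 11 ran from -0.31 to -0.07. The 3 EuMyc Max KO libraries lay below the 3 of Max KO for 8 of the 11, as they did for 15.1% of all genes.

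Of 21 receptors and kinases that feed into NF-kB, 17 fell in EuMyc (median -0.81), and 17 rose in EuMyc Max KO against EuMyc (median 0.51). The NIK kinase gene Map3k14 fell by 1.59 (SE 0.0907, edgeR adjusted p = 6.66e-09), the paracaspase gene Malt1 by 1.67 (SE 0.102) and the receptor gene Cd40 went from 154 to 35.8 CPM. The 3 genes not called in EuMyc were Chuk (0.07), Map3k7 (-0.08) and Tab2 (-0.02), and those not called in EuMyc Max KO against EuMyc were Chuk (-0.04), Map3k7 (0.10) and Traf5 (0.01). Traf6, an adaptor of Toll-like receptor signalling, was the only one called in the opposite direction: it rose from 80.7 to 117 CPM in EuMyc (0.53, SE 0.0578, edgeR adjusted p = 2.43e-06) and fell by 0.63 in EuMyc Max KO against EuMyc. In EuMyc Max KO against Max KO, 4 of the 21 were called lower and none higher (1 to 7 calls over the 20 alternatives). Of these Ikbkb had the smallest p (-0.32, edgeR adjusted p = 0.0092). All 10 genes that brake the pathway fell in EuMyc (median -0.67) and 9 rose again. Among them Tnip1, whose product binds A20, changed by -1.29 (SE 0.0670) and 1.13, and Zc3h12a, a ribonuclease that degrades cytokine transcripts, by -1.48 (SE 0.0862) and 1.52.

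Of 29 other genes induced by NF-kB, 23 were tested. Of these, 17 fell and 4 rose in EuMyc (median -1.53), and 17 rose and 3 fell in EuMyc Max KO against EuMyc (median 2.06). Plek, which encodes the protein kinase C substrate pleckstrin, fell by 2.41 (SE 0.0971, edgeR adjusted p = 6.12e-10) and Cflar, the caspase-8 inhibitor c-FLIP, by 1.12 (SE 0.0598). Sod2, the mitochondrial superoxide dismutase, rose by 0.88 in EuMyc (SE 0.0641, edgeR adjusted p = 6.07e-08) and fell by 0.59 in EuMyc Max KO against EuMyc. Bcl2l1, the BCL-XL gene, rose in EuMyc Max KO against Max KO by 2.98 (SE 0.494, edgeR adjusted p = 0.00454), with 26.7 to 139 CPM in the EuMyc Max KO libraries beside the erythroid values given above, and the part of those in it was not tested.

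**Figure D5:**
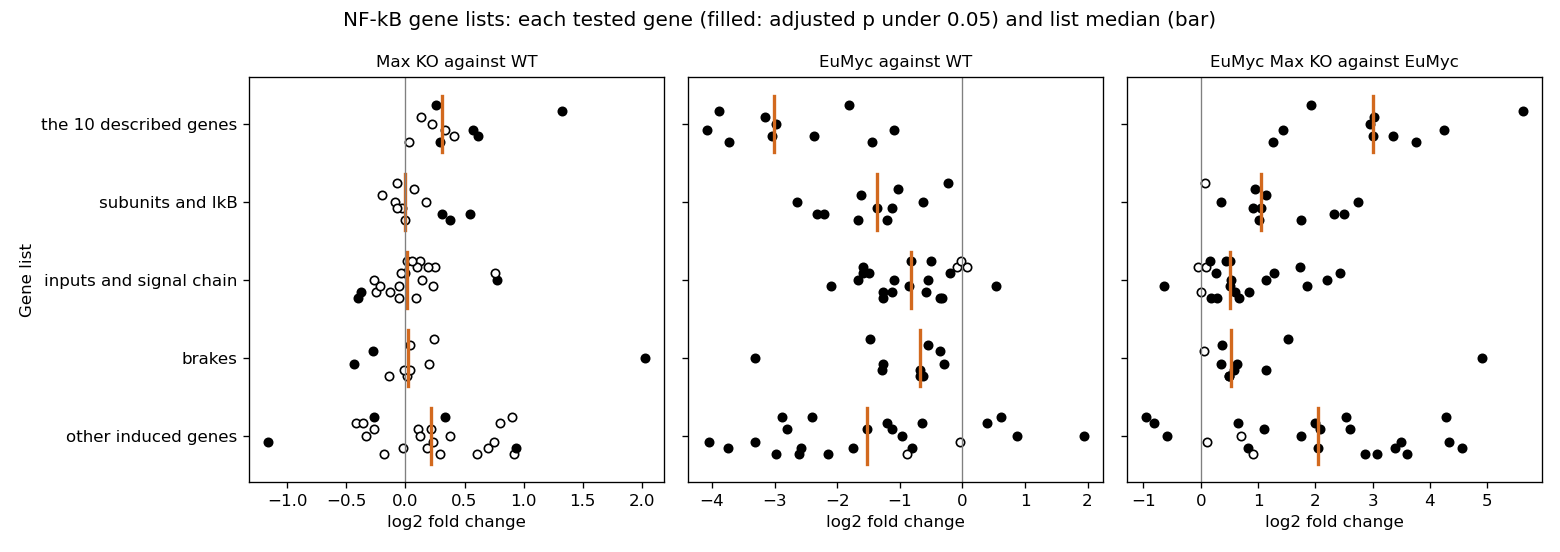
Log2 fold change of each tested gene in the members and 4 lists of NF-kB genes (points, filled at edgeR adjusted p under 0.05), with the list median as a bar, the x range differing between panels. In EuMyc against WT the medians are -3.01 for the members, -1.37 for subunits and IkB proteins, -0.81 for inputs, -0.67 for brakes and -1.53 for other induced genes.

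The receptors and partners of the members were given beside them from a list of 18 genes, 16 of which were tested and some of which, such as Tnip1 and Ltbr, are also in a list above. In EuMyc against WT 14 fell and 1 rose, and in EuMyc Max KO against EuMyc 14 rose and 1 fell. The TNF receptor gene Tnfrsf1b fell by 1.59 (SE 0.108) in EuMyc and Ltbr, the lymphotoxin receptor gene, by 1.10 (SE 0.257), while Tnfrsf1a went from 15.8 to 5.59 CPM. Il12a, whose product pairs with EBI3, rose in Max KO against WT (0.69, SE 0.123, edgeR adjusted p = 0.00391), fell by 2.03 in EuMyc and rose by 2.67 in EuMyc Max KO against EuMyc, while Il27, the other partner, stayed at or below 0.493 CPM in every library. Itgal and Itgb2, which form LFA-1, changed by -2.25 and -1.37 in EuMyc and by 2.16 and 1.78 in EuMyc Max KO against EuMyc. Itgal was the 1 of the 16 called in EuMyc Max KO against Max KO, where it was lower (-0.36, edgeR adjusted p = 0.00677). March1, the ligase that removes MHC class II from the surface and that CD83 opposes, changed by -2.81 (SE 0.0926) and 2.39. Birc2 and Traf2, which act with BIRC3 at the receptor, changed in EuMyc by -0.56 and -0.50.

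In Max KO against WT, where 7.27% of all genes were called higher and 7.74% lower, the counts of 4 of these lists turned on single libraries. Of the 21 inputs 1 was higher and 2 lower, of the 10 brakes 1 and 2, of the 23 other induced genes 2 and 2, and of the 16 partners 5 and 1. Over the 20 alternatives the calls in either direction ran from 0 to 7 for the inputs, 0 to 5 for the brakes, 1 to 8 for the other induced genes and 1 to 10 for the partners. The inputs gave 0 calls without WT replicate 1 or 2 or Max KO replicate 1 or 2, and the brakes gave 0 without Max KO replicate 1. The partners gave 1 without WT replicate 1, and the other induced genes gave 1 without WT replicate 1 or Max KO replicate 2. In EuMyc against WT the calls in either direction, 18 for the inputs, 10 for the brakes, 21 for the other induced genes and 15 for the partners, ran over 18 to 20, 9 to 10, 19 to 21 and 13 to 16 under the same alternatives.

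The genes outside the members whose log2 CPM over the 12 libraries was most like the mean of the members' standardised log2 CPM were Rasgef1b, Dusp6, Ctss, Osbpl5 and Bmp2k, with Pearson r of 0.998, 0.997, 0.997, 0.997 and 0.997 among 12868 genes compared. These libraries fall into 4 groups, and r was computed across them. Rasgef1b had mean levels of 128 CPM (WT), 195 (Max KO), 11.3 (EuMyc) and 154 (EuMyc Max KO). Ctss, a lysosomal protease of antigen presentation, went through 575, 748, 149 and 627 CPM in the same order.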

How the data were processed

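RNA from B220+ splenocytes of 12 mice, 3 per genotype, was sequenced. The authors deposited 1 table of raw, unnormalized read counts for each library. Per the submitters' processing notes the tools were bcl2fastq 1.8.4, TopHat2 2.1.0 and HTSeq 0.6.1, and the build was mm10. Neither the gene annotation nor the strand setting is given there. Rows that name no gene (5 summary rows, 34.9% to 45.4% of reads) were left out of library sizes and tests.

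The counts were analysed with R 4.3.3 and edgeR 4.0.16. Genes were filtered by filterByExpr, scaled by TMM and fitted in 1 quasi-likelihood model (glmQLFit, robust) over the 12 libraries with 8 residual degrees of freedom. The 5 comparisons were the effect of the Max knockout without and with the transgene, the effect of the transgene without and with the knockout, and the interaction. The p-values were adjusted by Benjamini-Hochberg over all 12878 genes tested. Intervals are 95%, from the SE of the same fit and a t distribution with the 8 residual degrees of freedom. The test also uses prior degrees of freedom from all genes, so the intervals can be wider than its p-values imply. With 3 libraries against 3, an exact two-sided permutation test on 1 gene has a smallest possible p of 0.1. The common biological coefficient of variation was 13.7%, and every pair of replicates differed by more than sampling noise (chi-square per degree of freedom 7.46 to 65.6). The pipeline was tested on simulated data.

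Alternatives were RLE factors, library totals, 2 other filters, DESeq2 1.42.0, limma-voom (limma 3.58.1), fits to 2 groups, the replicate number as a block, and each library left out. The members, gene lists and comparisons were chosen with earlier results of these data known. The text names all 10 members, Max and Myc, receptors and partners of members, and the 5 genes of most similar pattern. From each pathway list, the called genes with the smallest p were drawn up (up to 4 in EuMyc against WT, up to 3 in the others). Only a part of these is named in the text, and Pim1, Tnip3, Bcl2a1b and Tnfrsf13c are among those left out. Genes named as exceptions in a count were chosen after their values were seen. Of the list genes 2 marker symbols were not matched and are not analysed here. One gene of the B lineage marker list is not reported here, so that list has 9 genes.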

Additional observations from a re-analysis of the deposited data

Results flagged for a closer look

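The effect of the transgene with intact Max differed from its effect with the Max knockout for each of the 10 genes, by the interaction term of the edgeR quasi-likelihood model. As the log2 effect with the knockout minus that with intact Max, the value was 4.31 for Ccl22, 3.67 for Lta, 3.46 for Traf1, 2.95 for Cd83, 2.89 for Tnf, 2.73 for Ltb, 2.39 for Ebi3, 1.67 for Tnfaip3, 1.23 for Birc3 and 1.11 for Icam1. With intact Max, the EuMyc libraries lay below all WT libraries in 3 of 3 mice for each gene, as they did for 37.6% of all genes. With the knockout, 2 of the 10 genes were called lower with the transgene and none higher, where 3.69% of all genes were lower and 10.7% higher. Such a difference was called in the same direction for 27.8% of all genes. Myc RNA rose less with the transgene in the knockout (4.13-fold) than with intact Max (9.58-fold), and the part of this was not tested.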

How the results depend on the processing

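The transgene effect with intact Max, the effect of the Max knockout with the transgene and the interaction called all 10 genes under every alternative. Max KO against WT gave 1933 calls over all genes, and 808 to 2563 with a library left out; the members gave 5, and 3 to 6. With library totals the calls were 1130 higher and 719 lower, against 936 and 997. They were 4217 higher and 5035 lower in EuMyc against WT, against 4730 and 4495, and 5470 and 3995 in EuMyc Max KO against EuMyc, against 4845 and 4649. EuMyc Max KO against Max KO gave 1853 calls, 851 from the 2 groups alone and 1057 to 2846 with a library left out. Its members gave 2 calls, 1 with no filter, 0 from the 2 groups alone, and 0 to 2 with a library left out. Library totals moved the median of all genes in EuMyc Max KO against EuMyc from 0.03 to 0.15.

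With the replicate number as a block, EuMyc Max KO against Max KO called 1 member, Traf1 losing its call (adjusted p = 0.0608), and Max KO against WT called 7, adding Cd83 (adjusted p = 0.0290) and Icam1 (0.0476). Same-numbered libraries gave correlations of -0.117 to 0.344 over 18 pairs. Because only 4 of these were over 0.1, and the labels name no shared litter or day, the numbers were not taken to pair the mice. As a hint from the data toward pairing, 8 of 12 libraries correlated best with their own number, and the WT and Max KO pairs gave 0.179, 0.344 and 0.0951.

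Uncalled values near 0 changed sign. With a library left out, Tnf in Max KO against WT ran from -0.000797 to 0.26 and Birc3 from -0.0456 to 0.0691. In EuMyc Max KO against Max KO, Ebi3 ran from -0.155 to 0.12, Cd83 from -0.274 to 0.00214 and Icam1 from -0.0873 to 0.11. There Ebi3 was -0.0118 with library totals and -0.00295 with limma-voom, and Icam1 -0.00702 with library totals. The cause was not tested. List results under these alternatives were added after the data were seen. Depth limits Ccl22 in EuMyc, with 13 reads in all.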
